A study of Mus musculus with 2 samples.

Results

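The G1 cyclins and cell cycle exit genes are 10 genes that decide whether a cell passes from G1 into DNA synthesis: the D cyclins Ccnd1, Ccnd2 and Ccnd3, their kinases Cdk4 and Cdk6, the inhibitors Cdkn1b, Cdkn2a and Cdkn2c, and the Rb1 and E2f1 genes. They were chosen by symbol for their roles, with earlier results of these data known, and all 10 were found among the 18651 genes listed in either library. RNA was sequenced from immature oligodendrocytes of C57BL/6 mice, 1 library per genotype. By genotype label the control is wild type and Seh1cKO is mutant, the name standing for a conditional knockout of Seh1l, which encodes a scaffold protein of the nuclear pore. The sources used here do not give the Cre driver, the deleted exons, the number of animals or their sex. In both groups precursor cells were panned on anti-GalC and then anti-O4 plates from cortices of pups aged 4 to 7 days, expanded with PDGF-AA, CNTF, bFGF and NT3, and moved to 60 nM triiodothyronine (T3) with PDGF-AA, bFGF and NT3 removed. Day 2 of T3 was sampled.

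D cyclins rise when mitogens act on a cell, and they activate Cdk4 and Cdk6. The active kinases phosphorylate the retinoblastoma protein Rb, which then releases E2F transcription factors to switch on genes of DNA replication. Inhibitors of the INK4 family (such as Cdkn2a and Cdkn2c) block Cdk4 and Cdk6 directly, whereas Cip/Kip proteins such as p27, the product of Cdkn1b, act mainly on cyclin E and Cdk2. Oligodendrocyte precursors leave the cell cycle as they differentiate, and p27 is known for its part in that exit.

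Depth was near equal, at 20730114 reads assigned to genes in control and 20599590 in Seh1cKO, and levels are given as CPM, reads per 1000000 assigned reads. Seh1l was at 32.1 CPM in control against 18.5 CPM in Seh1cKO, 1.73-fold lower (1.53 to 1.97). The intervals in parentheses are exact 95% Clopper-Pearson intervals for counting error alone. With 1 library per genotype, no spread between cultures was available and no test of the genotype was possible, so each difference is one between 2 libraries. The lineage factors Olig2 (496 and 648 CPM) and Olig1 (864 and 873 CPM) were present in both libraries. The lineage markers went both ways. The precursor markers Pdgfra (156 and 277 CPM) and Cspg4 (98.8 and 148 CPM) were 1.77-fold (1.70 to 1.85) and 1.50-fold higher (1.42 to 1.59) in Seh1cKO. Sox10, a factor of the whole lineage, was 2.05-fold lower (1.98 to 2.13), and the myelin genes Cnp (1037 and 347 CPM) and Mbp (598 and 60.7 CPM) were 2.99-fold (2.91 to 3.07) and 9.86-fold lower (9.30 to 10.5). The myelin genes Mag and Mog were also lower. Markers of other cells also differed. The sum of 9 fibroblast and mural cell markers, all higher in Seh1cKO, was 208 and 621 CPM. The part of fibroblasts and mural cells in the Pdgfra and Cspg4 reads was not tested. The sum of 9 epithelial and mesothelial markers was 11.2 and 204 CPM. That difference came mostly through Krt8 (0.772 and 78.7 CPM) and Krt18 (1.21 and 63.9 CPM). Of the 7 at a mean of at least 1 CPM, 6 were higher, whereas Epcam was at 7.91 and 7.04 CPM. Upk3b and Wt1, at 0 in Seh1cKO, had only 2 reads and 1 read in control. The sum of 7 astrocyte markers was 8155 and 4785 CPM, mostly through Gfap at 5200 and 2214 CPM. The other 6 summed to 2955 and 2572 CPM, with Aldh1l1 and Gja1 higher and 4 lower in Seh1cKO. The sum of 6 endothelial markers was 11.1 and 25.4 CPM, mostly through Cdh5 at 1.01 and 13.8 CPM. Pecam1 and Flt1 were also higher in Seh1cKO, whereas Kdr and Tek were slightly lower. The counting intervals of Flt1, Kdr and Tek hold 1. Cldn5, at 0 in control, rested on 1 read in Seh1cKO. The sum of 7 microglia markers was 8.39 and 18.0 CPM, mostly through Cd68 at 3.67 and 8.30 CPM and Tmem119 at 0.868 and 4.175 CPM. All 4 at a mean of at least 1 CPM were higher in Seh1cKO, and the counting intervals of 2 hold 1. The sum of 6 neuron markers was 414 and 436 CPM. It was mostly Map2 (279 and 270 CPM) and Tubb3 (91.0 and 79.6 CPM), the 2 that were lower. The other 4 were higher, such as Stmn2 at 28.65 and 58.7 CPM. Xist, expressed from the inactive X, was at 0.868 and 341 CPM and the Y-linked Uty at 0 reads in Seh1cKO, so that sex and genotype cannot be told apart. None of the 10 genes lies on X or Y. The part of these differences in the results on the G1 genes was not tested. In bulk RNA, fewer cells of a type and less RNA per cell cannot be told apart.

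Of the 10 genes, 8 were higher and 2 lower in Seh1cKO. The 8 include Cdkn1b and Rb1, which were near equality and turned lower after a rescaling. Of all 13758 genes measured at a mean of at least 1 CPM, 60.9% were higher and 39.1% lower. One gene, Ccnd1, was at least 2-fold higher on the log2(CPM + 1) scale, where 2.86% of measured genes were, and none was at least 2-fold lower, where 1.29% were. In the deposited FPKM values, which scale reads by transcript length and depth, 1.80% of 12680 genes were at least 2-fold higher, Ccnd1 again being the 1 member among them. The counting interval of the ratio lay above 1 for 6 members and below 1 for 1 member, against 35.5% and 20.0% of measured genes, so at this depth many genes stood apart from equality by counting alone. The median log2 ratio of the 10 genes was 0.23, and that of all measured genes 0.07. Log2 ratios ran from -0.12 for Cdk4 to 1.44 for Ccnd1.

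**Figure D1:**
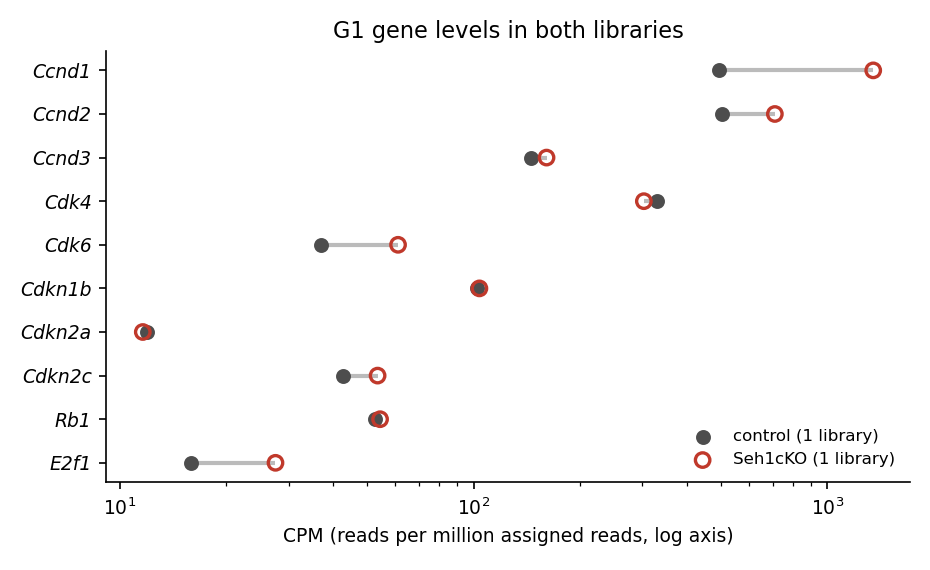
Level of each of the 10 genes in CPM on a log axis, with filled points for the control library and open points for the Seh1cKO library (1 library each, no error bars). Ccnd1 stands at 495 and 1348 CPM, whereas the points of Cdkn1b, Cdkn2a and Rb1 nearly coincide.

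The D cyclins were all higher in Seh1cKO, by amounts that differed widely. Their reads come from separate genes whose coding sequences are related: aligned coding bases were 70.2% identical between Ccnd1 and Ccnd2, 66.3% between Ccnd1 and Ccnd3 and 68.8% between Ccnd2 and Ccnd3. The longest run shared between their GENCODE transcripts was 20 bases, for Ccnd1 and Ccnd2. The first 45 coding bases are shown because this is where the D cyclins carry the LxCxE stretch by which they dock on Rb. They are given 5′ to 3′ on the coding strand from GENCODE transcripts on GRCm38, and capitals mark the 15 bases that encode it.
Ccnd1 (chr7:144939649-144939693, minus strand): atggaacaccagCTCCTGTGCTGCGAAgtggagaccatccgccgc
Ccnd2 (chr6:127150729-127150773, minus strand): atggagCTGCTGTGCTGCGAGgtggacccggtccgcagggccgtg
Ccnd3 (chr17:47593655-47593699, plus strand): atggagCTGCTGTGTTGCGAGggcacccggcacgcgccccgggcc
In the docking stretch Ccnd1 and Ccnd2 share 13 of 15 bases, Ccnd1 and Ccnd3 share 12, and Ccnd2 and Ccnd3 share 14. Read off without gaps from the start codon, the pairs share 16, 17 and 26 of 45 bases.

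Ccnd1 (Entrez 12443, GRCm38 chromosome 7, 144929931 to 144939831), the D cyclin most directly driven by growth factor signals, had 10253 reads in control against 27758 in Seh1cKO. That is 495 and 1348 CPM, 2.72-fold higher (2.66 to 2.79). Of the 13758 measured genes, 150, Ccnd1 included, had a log2 ratio at least as high. Most of those were less abundant. Among the 2355 genes at a mean of at least 100 CPM, 8, Ccnd1 included, had a log2 ratio at least as high. That floor is a mean of both libraries, so a gene can pass it through a high level in Seh1cKO alone. The authors' deposited table of 896 genes lists Ccnd1 with a log2 fold change of 1.45 and none of the other members. That fold change is the log2 ratio of its FPKM values of 129 and 352.

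The 5 genes at a mean of at least 100 CPM whose log2 ratio came nearest to that of Ccnd1 were Col4a1, Anxa3, Tnc, Akap12 and Flnc, within 0.11 of it. With 2 libraries this likeness is 1 ratio per gene. Of the 5, Anxa3, Tnc and Akap12 (83.9 CPM) were below 100 CPM in control and passed the floor through their level in Seh1cKO. Col4a1, a basement membrane collagen, was at 145 and 394 CPM. Tnc, the matrix protein tenascin C, was at 97.6 and 278 CPM, and Anxa3, an annexin, at 74.5 and 207 CPM.

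Ccnd2 (Entrez 12444, chromosome 6, 127125162 to 127152188), a D cyclin common in neural progenitors, had 10431 and 14636 reads. Its level was 503 CPM in control against 711 CPM in Seh1cKO, 1.41-fold higher (1.38 to 1.45). Ccnd3 (Entrez 12445, chromosome 17, 47505051 to 47599689), the D cyclin often retained in differentiated tissues, was at 145 and 161 CPM, 1.11-fold higher (1.05 to 1.16). Ccnd2 had a log2 ratio above those of 87.7% of measured genes, and Ccnd3 stood near the middle, at 61.5%. Ccnd1 and Ccnd2 were thus near equal in CPM in control and apart in Seh1cKO.

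Per unit of transcript length the makeup of the D cyclin RNA differed between the libraries. In FPKM, Ccnd1 was at 129 and 352, Ccnd2 at 86.1 and 122, and Ccnd3 at 72.7 and 80.6. Ccnd1 made up 44.8% of the summed D cyclin FPKM in control and 63.5% in Seh1cKO. The share of Ccnd2 was 29.9% and 22.0%, and that of Ccnd3 25.3% and 14.6%. The sum was 288 FPKM in control and 554 FPKM in Seh1cKO, 1.92-fold higher, and Ccnd1 accounted for 83.7% of that difference. As a share of D cyclin reads, which has a counting interval, Ccnd1 took 43.3% (42.6 to 43.9) of 23689 reads in control and 60.7% (60.3 to 61.2) of 45704 reads in Seh1cKO.

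**Figure D2:**
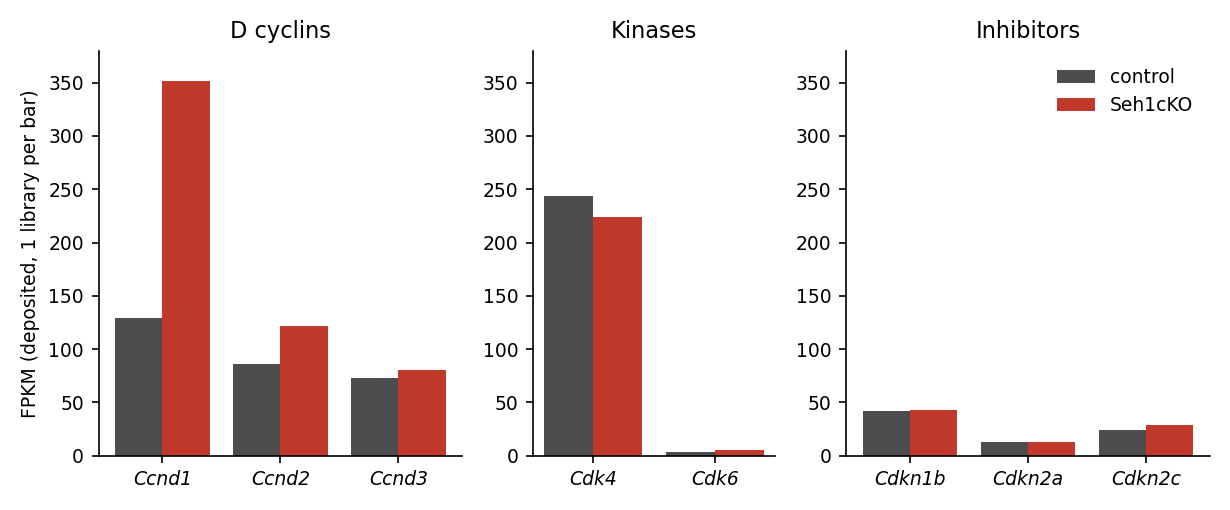
Deposited FPKM of the D cyclins, their kinases and the 3 inhibitors, 1 library per bar, on a shared axis from 0. Ccnd1 passes Cdk4 in Seh1cKO (352 against 224 FPKM), and Cdk6 stays at or below 5.21 FPKM in both libraries.

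The kinases differed in opposite directions. Cdk4 (Entrez 12567, chromosome 10, 127063535 to 127067288), the main D cyclin partner here by level, had 6835 reads in control and 6238 in Seh1cKO. Its level of 330 and 303 CPM was 1.09-fold lower (1.05 to 1.13). Cdk6 (Entrez 12571, chromosome 5, 3341004 to 3531008), the related kinase that D cyclins can also use, had 768 and 1259 reads. At 37.1 and 61.1 CPM it was 1.65-fold higher (1.51 to 1.81), above 93.5% of measured genes in log2 ratio. In FPKM, Cdk4 was at 244 and 224 and Cdk6 at 3.16 and 5.21, so Cdk4 made up 98.7% of the summed kinase RNA in control and 97.7% in Seh1cKO. The sum of both kinases was 247 and 229 FPKM. The D cyclin sum per kinase sum was 1.17 in control and 2.42 in Seh1cKO.

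The promoter windows of both kinases are shown because the pair differed in direction and both windows hold the E-box CACGTG, the core site of Myc and other basic helix-loop-helix proteins. Among the other members with a window, Cdkn2c also has an E-box, in a window that lies inside the span of the gene. It begins 34 bases after the start used there. No window was found for Ccnd1, Ccnd2 or Rb1, so their promoters were not searched. The windows run from 250 bases before to 50 bases after the start, from RefSeq on GRCm38.p6, 5′ to 3′ on the plus strand, with E-boxes in capitals. CACGTG reads the same on both strands and does not overlap itself here.
Cdk4 (chr10:127063285-127063584): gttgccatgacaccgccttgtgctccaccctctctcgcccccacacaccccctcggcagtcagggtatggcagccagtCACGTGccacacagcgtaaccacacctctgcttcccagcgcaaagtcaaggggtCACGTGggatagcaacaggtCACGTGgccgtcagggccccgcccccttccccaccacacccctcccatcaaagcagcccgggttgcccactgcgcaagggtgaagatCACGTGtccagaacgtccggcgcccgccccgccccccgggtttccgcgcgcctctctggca
Cdk6 (chr5:3343643-3343942): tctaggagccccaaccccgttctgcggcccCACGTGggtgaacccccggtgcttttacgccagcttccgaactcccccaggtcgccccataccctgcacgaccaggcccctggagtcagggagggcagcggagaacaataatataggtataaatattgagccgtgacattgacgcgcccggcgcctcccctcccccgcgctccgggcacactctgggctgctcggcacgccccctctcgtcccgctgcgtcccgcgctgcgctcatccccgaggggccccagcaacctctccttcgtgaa
The Cdk4 window holds 4 E-boxes, which begin 172, 118, 98 and 11 bases before the start. The Cdk6 window holds 1, which begins 220 bases before the start used there. The Cdk6 window lies inside the span of the gene given above and not at its outer start. Of all 32851 promoter windows 7.15% hold at least 1 E-box, and 8 windows hold 4 or more. Of the Myc family, Myc was at 49.8 CPM in control against 76.0 CPM in Seh1cKO, 1.53-fold higher (1.41 to 1.65). Mycn was at 4.44 and 5.97 CPM, and their partner Max at 58.0 and 61.9 CPM. Mycl was at 52.5 and 22.3 CPM, 2.36-fold lower (2.11 to 2.63).

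The inhibitor genes Cdkn1b and Cdkn2a were nearly equal in both libraries. Cdkn1b (Entrez 12576, chromosome 6, 134920401 to 134925525), which encodes p27, had 2117 and 2139 reads. That is 102 and 104 CPM, a ratio of 1.02 (0.957 to 1.08), whose direction turned when libraries were scaled by the upper quartile or by the median of ratios. Cdkn2a (Entrez 12578, chromosome 4, 89274473 to 89294619) had 248 and 239 reads, or 11.96 and 11.6 CPM, a ratio of 0.970 (0.809 to 1.16). Both intervals hold 1. They cover counting error alone and set no limit on a difference between the genotypes. Cdkn2c (Entrez 12580, chromosome 4, 109660876 to 109666756), which encodes the INK4 protein p18, was at 42.8 and 53.5 CPM, 1.25-fold higher (1.14 to 1.37).

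Cdkn2a makes 2 proteins from separate first exons. The p16 protein is an INK4 inhibitor, and Arf protects p53 from Mdm2. The deposited count covers both RNAs, which share a run of 578 bases in GENCODE, so the value does not say which was present. The window of the upstream start (chromosome 4, 89294570 to 89294869, minus strand), where the Arf RNA begins, is shown because it holds the single E2F match among the 10 windows found for 7 of the 10 members. The window found for E2f1 lies inside the span of the gene and not at its outer start.
Cdkn2a (chr4:89294570-89294869, minus strand): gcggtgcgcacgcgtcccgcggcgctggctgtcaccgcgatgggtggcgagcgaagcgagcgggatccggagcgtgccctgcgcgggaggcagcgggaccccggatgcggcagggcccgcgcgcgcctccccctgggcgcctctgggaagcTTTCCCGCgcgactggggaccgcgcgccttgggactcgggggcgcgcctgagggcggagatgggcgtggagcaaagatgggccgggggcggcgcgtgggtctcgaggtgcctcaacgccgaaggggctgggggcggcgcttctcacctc
Capitals mark the match, which begins 99 bases before the start. The letters searched were TTTGGCGC, TTTCCCGC, TTTGCCGC and TTTCGCGC on both strands, found in 2.26% of all promoter windows. A match is not a measured binding site, and no match in the other windows says only that these letters are not in them.

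The inhibitors outside the 10 genes were more varied. Cdkn1c, the Cip/Kip gene of p57, was at 40.3 CPM in control against 12.9 CPM in Seh1cKO, 3.14-fold lower (2.73 to 3.61). Cdkn1a, which encodes the p53 target p21, was at 335 and 450 CPM, 1.34-fold higher (1.30 to 1.38). The INK4 gene Cdkn2d was at 61.4 and 49.4 CPM, 1.24-fold lower (1.14 to 1.35), and Cdkn2b at 67.7 and 73.4 CPM, 1.08-fold higher (1.01 to 1.16). Cdkn3, a phosphatase of Cdk proteins, was at 5.40 and 8.88 CPM.

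Compared per length, the inhibitors did not follow the D cyclins. The 3 inhibitors among the 10 genes summed to 79.3 FPKM in control and 84.3 FPKM in Seh1cKO. Set against the D cyclin sum that is 0.276 in control and 0.152 in Seh1cKO. With all 7 Cip/Kip and INK4 genes the inhibitor sum was 373 and 418 FPKM, a ratio of 1.12. That sum was above the D cyclin sum in control (288 FPKM) and below it in Seh1cKO (554 FPKM). The 4 INK4 genes summed to 135 and 134 FPKM, a ratio of 0.991, and the 3 Cip/Kip genes to 238 and 284 FPKM, of which Cdkn1a alone was 175 and 235 FPKM. These are sums of RNA, and protein levels were not measured.

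**Figure D3:**
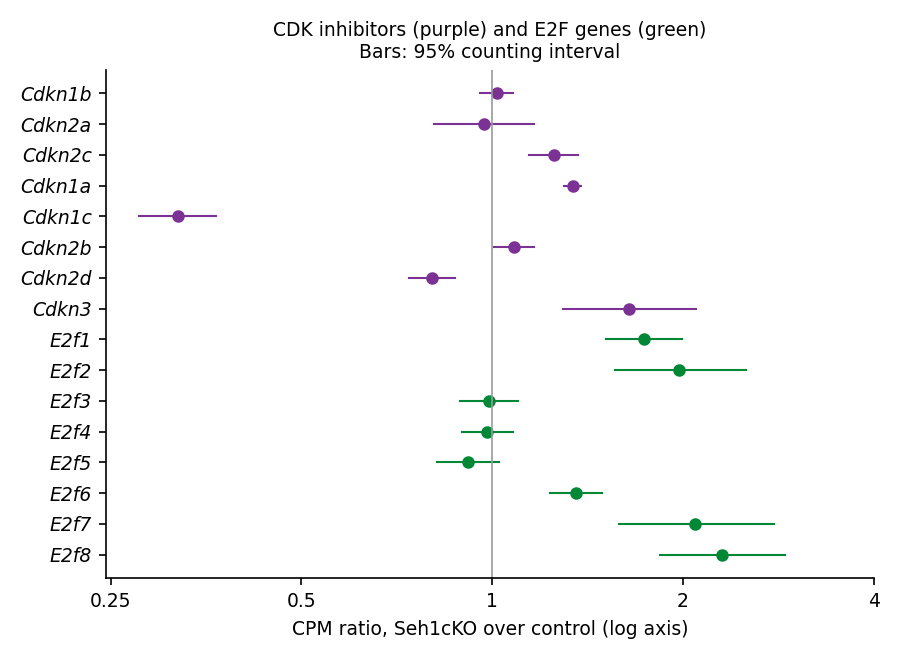
CPM ratio of Seh1cKO over control on a log axis for CDK inhibitor genes (purple) and E2F genes (green), with bars for the 95% counting interval between 2 libraries. Cdkn1c is lowest at 0.319, and E2f7 and E2f8 are highest at 2.09 and 2.30.

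Rb1 was nearly equal in both libraries and E2f1 was higher in Seh1cKO. Rb1 (Entrez 19645, chromosome 14, 73192858 to 73325951), the substrate of the D cyclin kinases, had 1090 and 1120 reads. Its level of 52.6 and 54.4 CPM gave a ratio of 1.03 (0.950 to 1.12), which came out below 1 after rescaling by the median of ratios. E2f1 (Entrez 13555, chromosome 2, 154559400 to 154569892), an activating E2F that Rb holds in check, had 329 and 567 reads. At 15.9 and 27.5 CPM it was 1.73-fold higher (1.51 to 1.99), above 94.4% of measured genes in log2 ratio. In FPKM E2f1 was at 0.519 of the level of Rb1 in control and at 0.870 in Seh1cKO.

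The rest of the E2F family varied within its classes, and classes were not tested. E2f2, a second activator, was at 5.21 CPM in control against 10.3 CPM in Seh1cKO, 1.98-fold higher (1.56 to 2.51). The atypical repressors E2f7 and E2f8, which are themselves E2F targets, were 2.09-fold (1.58 to 2.78) and 2.30-fold higher (1.84 to 2.90), at 3.71 and 7.77 CPM and at 5.50 and 12.7 CPM. E2f3, E2f4 and E2f5 were near equality, with ratios of 0.988, 0.983 and 0.916 and intervals that hold 1, while E2f6 was 1.36-fold higher (1.23 to 1.49). Of the Rb relatives, Rbl1 (p107) was at 11.1 and 18.8 CPM, 1.69-fold higher (1.43 to 2.00), and Rbl2 (p130), typical of resting cells, at 36.0 and 34.7 CPM.

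Without a spread between cultures, neighbours in the order of the levels could not be tested. By FPKM the order in control was Cdk4, Ccnd1, Ccnd2, Ccnd3, Cdkn1b, Cdkn2c, Cdkn2a, Rb1, E2f1 and Cdk6. In Seh1cKO the order was the same except that Ccnd1 stood above Cdk4. E2f1 (10.1 FPKM) and Rb1 (11.6 FPKM) were closer to each other there than in control (5.81 and 11.2 FPKM).

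**Figure D4:**
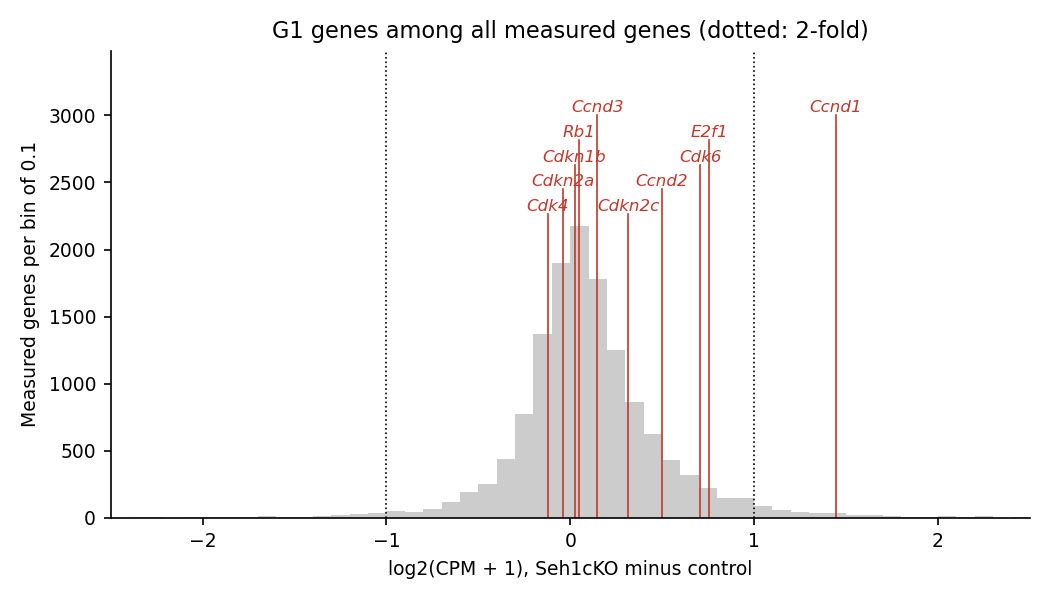
Histogram of the log2 ratio, Seh1cKO minus control on the log2(CPM + 1) scale, for the measured genes that lie within the plotted range, in bins of 0.1, with a red line for each of the 10 genes and dotted lines at 2-fold. Ccnd1 at 1.44 is the 1 red line beyond the dotted lines, and Cdk4 at -0.12 is the lowest.

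The rest of the pathway was read from 11 lists of 106 genes outside the 10, all of them measured. Of these, 90 were higher and 16 lower in Seh1cKO, 3 of them past 2-fold upward and 2 past 2-fold downward on the log2(CPM + 1) scale, with a median log2 ratio of 0.41 against 0.07 for all measured genes. Over all measured genes 60.9% were higher, 2.86% past 2-fold upward and 1.29% past 2-fold downward, so the counts past 2-fold were near the background. The 90 include 8 genes near equality that turned lower after a rescaling. The 3 were E2f8, Cdc6 and Mcm5, and the 2 were Cdkn1c and Mycl.

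Cyclin E, cyclin A and Cdk2, which act after the D cyclins at the entry into S phase, were all higher. Ccne1 was at 14.2 and 18.0 CPM, 1.27-fold higher (1.09 to 1.49), and Ccne2 at 5.93 and 9.76 CPM, 1.65-fold higher (1.31 to 2.07). Ccna2 was 1.58-fold higher (1.45 to 1.71), Cdk2 1.33-fold (1.18 to 1.50) and the activating phosphatase gene Cdc25a 1.46-fold (1.26 to 1.69). The list median was 0.52.

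All 24 E2F targets of S phase were higher, with a median log2 ratio of 0.65. The pre-replication gene Cdc6 was at 4.73 CPM in control against 10.6 CPM in Seh1cKO, 2.25-fold higher (1.76 to 2.88). The helicase subunit Mcm5 was at 28.0 and 58.2 CPM, 2.08-fold higher (1.88 to 2.30). Pcna, the sliding clamp of replication, was the most abundant of the list and 1.33-fold higher (1.27 to 1.40), at 138 and 184 CPM. Markers of G2 and mitosis were higher in 12 of 12 cases, with a median of 0.54, such as Top2a at 115 and 178 CPM and Mki67 at 97.0 and 139 CPM. The same library held the higher sums of fibroblast markers (621 against 208 CPM) and of epithelial markers (204 against 11.2 CPM), the latter mostly Krt8 and Krt18. The part of such cells in the cell cycle reads was not tested.

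Genes of the DREAM and MuvB complexes, which silence cell cycle genes in resting cells or activate them later, were higher in 6 of 7 cases, with a median of 0.30. None passed 2-fold on the log2(CPM + 1) scale, although the plain CPM ratio of Mybl2 was above 2. Mybl2 was at 11.3 and 22.8 CPM, 2.02-fold higher (1.72 to 2.38), and Foxm1 at 28.8 and 44.8 CPM, 1.55-fold higher (1.40 to 1.72). Of the constant subunits, Lin9 was 1.43-fold (1.14 to 1.79) and Lin54 1.26-fold higher (1.05 to 1.50). Lin52 and Rbbp4 had ratios of 1.06 (0.917 to 1.23) and 1.01 (0.972 to 1.05), the latter turning below 1 after a rescaling, and Lin37 had a ratio of 0.880 (0.770 to 1.01).

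Genes that control the level of D cyclins and p27 after transcription were close to the background, with a median of 0.04 over 13 genes and none past 2-fold. The exceptions by size were Cks1b and Skp2, which direct p27 to destruction. Cks1b was at 21.3 and 33.5 CPM, 1.58-fold higher (1.40 to 1.78), and Skp2 at 11.96 and 15.7 CPM, 1.31-fold higher (1.11 to 1.55). Fbxo31, an F-box gene for cyclin D1, was 1.18-fold lower (1.08 to 1.28), while Ambra1, which targets D cyclins for degradation, was at 57.8 and 58.1 CPM. Gsk3b, whose kinase marks cyclin D1 for export and breakdown, was at 142 and 147 CPM. The Cdk-activating kinase genes Cdk7, Ccnh and Mnat1 had ratios of 1.13, 0.983 and 1.06.

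Regulators of the Ink4a/Arf locus, listed with Mdm2 and Trp53 of the Arf pathway, were higher in 11 of 12 cases, against 60.9% of all measured genes. Of the 11, Cbx8 turned lower after a rescaling. Cdkn2a itself had a ratio of 0.970 (0.809 to 1.16). The Polycomb genes Bmi1 and Ezh2, which silence the locus, were 1.17-fold (1.07 to 1.28) and 1.19-fold higher (1.11 to 1.29). Mdm2, which degrades p53 and is itself a p53 target, was at 78.7 and 107 CPM, 1.36-fold higher (1.27 to 1.45), and Trp53 was 1.11-fold higher (1.05 to 1.17). The median of the 12 genes was 0.14, and none passed 2-fold.

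Genes linked to quiescence or antiproliferative signals were higher in 9 of 10 cases, with a median of 0.41 and none past 2-fold. Of the 9, Ccng2 and Tob2 turned lower after a rescaling. Foxo3 was at 10.5 and 20.8 CPM, 1.99-fold higher (1.68 to 2.35), Btg2 1.75-fold (1.57 to 1.95) and Gas1, a growth arrest gene also expressed by fibroblasts, 1.68-fold (1.57 to 1.79). The cyclin G gene Ccng1, a p53 target, was at 322 and 479 CPM. The exception was Ndrg2, a differentiation gene abundant in astrocytes, at 812 and 527 CPM, 1.54-fold lower (1.51 to 1.58). Seh1cKO also had 5 of 7 astrocyte markers lower, Gfap by 2.35-fold (2.32 to 2.38), and 2 higher, and their part in this difference was not tested.

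**Figure D5:**
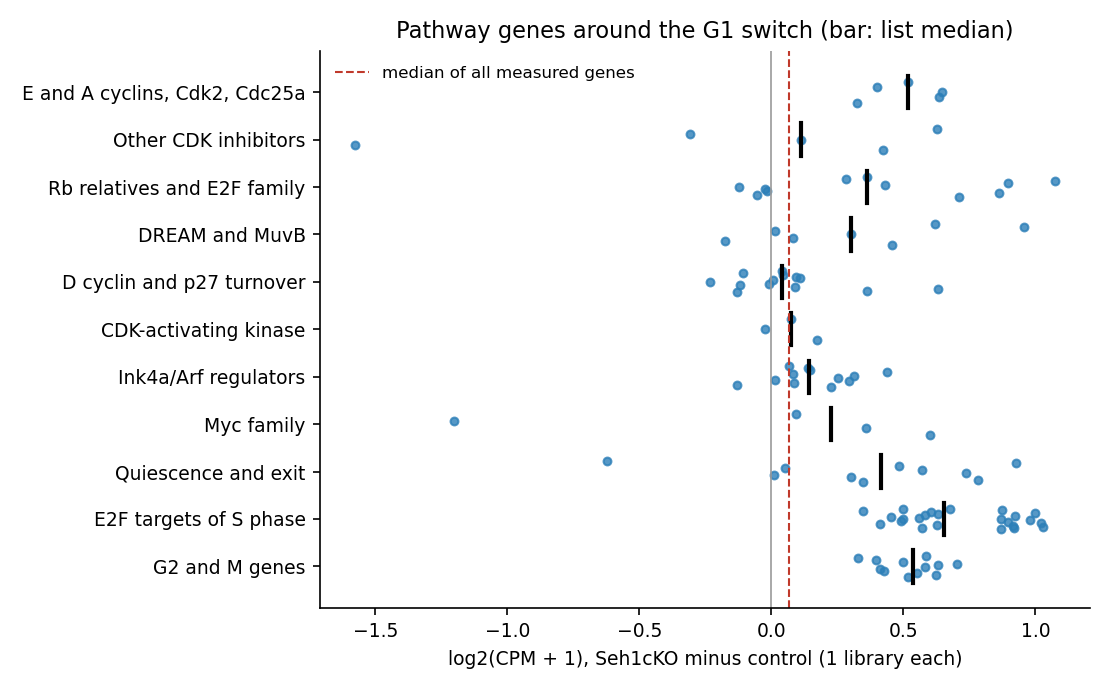
Log2 ratio of each pathway gene, Seh1cKO minus control on the log2(CPM + 1) scale, by list, with a black bar at the list median and a dashed line at the median of all measured genes (0.07), 1 library per genotype. All points of the E2F targets and of the G2 and M genes lie to the right of 0, whereas the turnover genes are spread around the dashed line.

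How the reads were counted limits some of these values. The expected counts of Ccnd3, Cdk6 and E2f1 were not whole, so some of their reads were shared out in the authors' counting. Ccnd3 has a processed pseudogene, Ccnd3-ps, whose sequence shares a run of 89 bases with the Ccnd3 transcript. Cdk4 and Cdk6 share at most 20 bases in a row. The spans of 6 members (Ccnd1, Ccnd2, Ccnd3, Cdk4, Cdk6 and Rb1) overlap a gene on the opposite strand in GENCODE, and the sources used here do not give the strand setting of the counting, so reads of such partners cannot be told apart.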

How the data were processed

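RNA sequencing libraries from the control and Seh1cKO groups, 1 each, were analysed. For each library the authors deposited an expected count, an estimated number of reads per gene, and an FPKM value, under Entrez identifiers and symbols; genes without reads are left out of a table and were set to 0 here. StringTie, HTSeq and mm10 appear in the submitters' processing notes, without a role for either tool, and the sources used here name no aligner. Among 8891 control genes with at least 5 FPKM, the expected count over length and library total came within 5% of the FPKM in 98.3%. The authors' deposited table lists per gene a log2 fold change with its p-value; the sources used here do not name its test, and those p-values, from 1 library per group, are not used.

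After rounding to whole numbers, the expected counts were scaled to CPM. Log2 ratios are of CPM + 1, which understates the difference of low genes, and single-gene folds are CPM ratios without it. A gene was measured at a mean of at least 1 CPM. A count of 0 allows up to 3 counts, or 0.145 CPM in control and 0.146 CPM in Seh1cKO. Reads carry no molecular identifiers, so intervals cover counting error only. The intervals and 2-fold calls were run on simulated counts that held counting error alone. No spread between cultures was simulated, so that run says nothing about such variation. Counting calls by these intervals was added after seeing the data. A floor of 500 CPM was added likewise and is not used, since 2 of the 3 genes past 2-fold there were below it in control. No test across genes was possible with 1 library per group. The members and lists were chosen with earlier results of these data known. Named genes were the 10 members, Seh1l and Olig2, any gene of a pathway list of up to 13 genes, in longer lists the largest ratios and most abundant genes, marker genes by abundance or a count of 0, and the 5 genes nearest to Ccnd1. Pdgfra, Cspg4, Sox10, Mbp, Mag, Mog, Aldh1l1, Gja1 and Epcam, named outside that rule, were chosen after their values were seen. The endothelial genes Cdh5, Pecam1, Flt1, Kdr and Tek were likewise named after their values were seen. The summed level of the oligodendrocyte markers is not reported here. Coordinates are those of RefSeq on GRCm38.p6, the assembly behind mm10. Python 3.11.15, SciPy 1.17.1, pandas 2.3.3 and Biopython 1.88 were used.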

Additional observations from a re-analysis of the deposited data

How the results depend on the processing

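The settings tried were other pseudocounts, scaling by the upper quartile or by the median of ratios, FPKM in place of CPM, other floors and leaving out chromosomes X and Y. Under all of them Ccnd1 remained the 1 member past 2-fold, with log2 ratios from 1.37 to 1.45, and no member other than Cdkn1b and Rb1 turned direction. No result past 2-fold among the members reversed. The count of all genes at least 2-fold higher was 394, and it was 637 with a pseudocount of 0.1 CPM, 141 with 5 CPM, 228 on the FPKM scale and 228 with a floor of 5 CPM. The count of lower genes was 178, and it was 241 with a pseudocount of 0.1 CPM and 116 with 5 CPM. On the FPKM scale the split was 228 higher and 173 lower. The median of all genes, 0.07, was 0.055 with a pseudocount of 5 CPM, -0.0050 after rescaling by the median of ratios, 0.024 by the upper quartile, 0.052 on the FPKM scale and 0.055 with a floor of 5 CPM. The cause of these shifts was not tested. Dividing CPM by the deposited length left the shares and sums per length within 5%. No paired analysis was possible because each group holds 1 library. Depth limits Cdkn2a most, at 248 and 239 reads.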

Other observations

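The deposited length of Cdkn2c differed between the libraries, at 1801 bases in control and 1884 bases in Seh1cKO. Cdkn2c is listed with 2 transcripts, which are 1106 and 2471 bases long in GENCODE. Such shifts were common: of 5167 genes with several transcripts listed in both libraries, 82.9% had another length in each, whereas all 11864 genes with 1 transcript had the same length in both (tolerance 0.01). The Cdkn2c ratio was 1.25 in CPM and 1.19 in FPKM. The lengths of Cdkn2a, at 924 and 923 bases, and of E2f1, at 2718 and 2717 bases, hardly differed.

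Of the 6 pathway genes that the authors' deposited table lists as higher, Chaf1b, E2f7 and Mybl2 did not reach 2-fold on the log2(CPM + 1) scale. Without the added 1 CPM the ratio was 2.12 for Chaf1b, 2.09 for E2f7 and 2.02 for Mybl2.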
